A study of Homo sapiens with 47 samples.

Results

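TGM2 encodes transglutaminase 2 (tissue transglutaminase), the enzyme that can attach serotonin to histone H3. It was taken by its gene name, which belongs to 1 of the 62703 gene identifiers in both RNA tables (ENSG00000198959, chromosome 20, 38127385 to 38166578, minus strand, GRCh38). Its chromatin was taken as the regions of the histone-mark table in a window around the gene. That window holds 1 of the 19535 regions, at 38161312 to 38165881. The nearest regions outside it lie 119567 bases away on the side of the gene body and 260367 bases away upstream.

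Transglutaminases use calcium to link the side chain of a glutamine to an amine. The amine is usually a lysine of another protein, which crosslinks the pair, but it can also be a small molecule such as serotonin or dopamine. On histone H3 the serotonin is joined to the glutamine next to lysine 4, and where that lysine is also trimethylated the doubly modified tail is called H3K4me3Q5ser. TGM2 is known as the main transglutaminase of many tissues and tumours, and it also acts outside the nucleus on the cell surface and the extracellular matrix.

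The samples are PC3 cells, a human prostate cancer cell line. The cells were transduced to overexpress DDC, the decarboxylase that forms serotonin and dopamine, or SLC6A4, the transporter that carries serotonin into the cell, or they carried the empty vector as controls. RNA sequencing and ChIP sequencing of H3K4me3Q5ser and of H3K4me3 have 3 libraries of each line, and ChIP input values were used for the DDC and empty-vector lines. CUT&Tag, in which a tethered transposase cuts the chromatin next to a bound antibody, has 1 H3K4me3 library each of SLC6A4 cells with a short hairpin against TGM2 (shTGM2), SLC6A4 cells and control cells. The labels do not state separate cultures or clones, so the p-values below measure only the spread between these libraries, which may be technical. No sequence of the vectors or of the hairpin was used here, and 8 CUT&Tag samples of DDC cells with or without the agent labelled TG2-IN-1 were not analysed here.

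Depth was similar in the 9 RNA libraries, at 17.3 M to 21.7 M reads in genes. The ChIP libraries held 13.5 M to 24.8 M read pairs in regions for H3K4me3Q5ser, 3.43 M to 5.81 M for H3K4me3 and 1.39 M to 1.83 M for input. For H3K4me3Q5ser the DDC libraries were shallower, at 13.5 M to 16.7 M, than the empty-vector libraries, at 24.1 M to 24.4 M. DDC itself had 79 reads over the 3 DDC libraries, against 1 read over the 3 empty-vector libraries. SLC6A4 had 344 reads over the 3 SLC6A4 libraries, against 1 read over the 3 empty-vector libraries. In both cases the gene was higher in the line labelled with it than in the empty vector, at a low mean level of 0.670 TPM for DDC in DDC cells and 1.26 TPM for SLC6A4 in SLC6A4 cells. A recoded transgene would not be counted. Of the markers of prostate epithelial cells, KRT8, KRT18, KRT19, EPCAM and CDH1, all 5 were detected in each line.

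The H3K4me3Q5ser region at TGM2 is 4570 bases long. It covers the first 3958 bases of the gene from the start of the canonical transcript and 611 bases upstream, with exons 1 and 2 of 13 and the whole first intron. Of the 6 annotated transcripts 3 start inside it, while a pair of shorter protein-coding transcripts starts 627 and 697 bases beyond its upstream end. A pair of listed H3K4me3 peaks lies within it, 1 of 2052 bases from 38163239 to 38165291 that holds the canonical start, and 1 of 440 bases from 38162562 to 38163002 inside intron 1. The GC content of the region was 52.9%, against a median of 47.9% for the 10166 regions within 1000 bases of the start of a protein-coding gene. Its ratio of observed to expected CpG was 0.335, below the median of 0.460, and 11.2% of those start regions had a lower ratio.

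**Figure D1:**
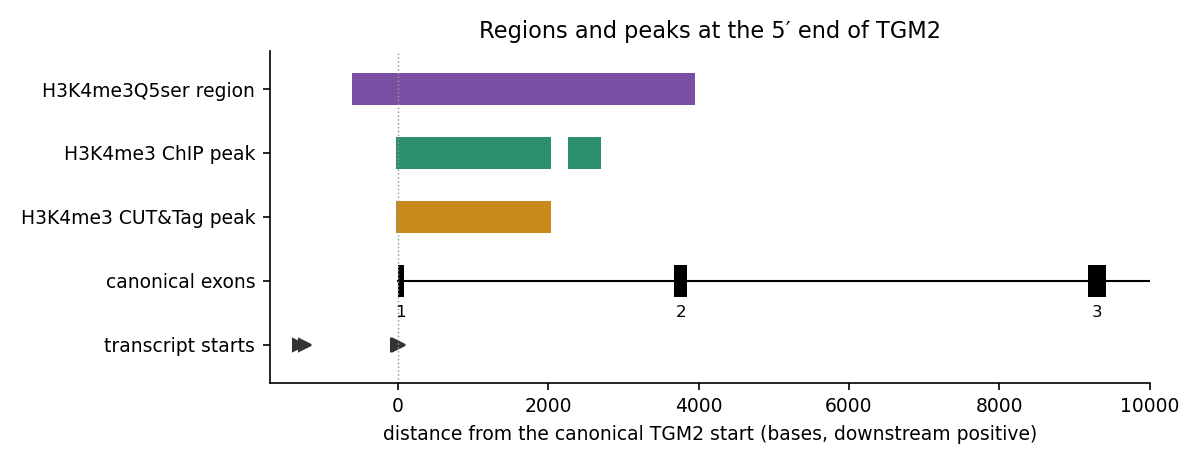
Map of the 5′ end of TGM2, with the distance from the canonical start on the horizontal axis in bases. Bars are the H3K4me3Q5ser region, the H3K4me3 ChIP peaks and the CUT&Tag peak of the deposited lists, black boxes are canonical exons, and arrowheads are transcript starts: the serotonylated region runs from 611 bases upstream to 3958 bases downstream of the start, and the H3K4me3 peaks run from 21 bases upstream to 2031 bases downstream and from 2268 to 2708 bases downstream.

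The first question was how much of the transglutaminase family the cells express, and TGM2 was nearly all of it. TGM2 made up 99.8% to 100.0% of the family's summed level per exon length (TPM) in the DDC libraries, 99.96% to 99.98% in the SLC6A4 libraries and 99.9% to 100.0% in the empty-vector libraries. TGM1, the keratinocyte transglutaminase, had 5 reads over the 3 DDC libraries, 8 over the 3 SLC6A4 libraries and 3 over the 3 empty-vector libraries. TGM4, the prostate transglutaminase of seminal fluid, had 9 reads over the DDC libraries, 11 over the SLC6A4 libraries and 3 over the empty-vector libraries. TGM5, TGM6 and the erythrocyte membrane protein EPB42, which lacks enzyme activity, had no read in the DDC or SLC6A4 libraries and 3, 1 and 2 reads over the empty-vector libraries. No library held a read of TGM3, TGM7 or F13A1, the plasma clotting transglutaminase. A count of 0 allows up to 3 reads in a library, or 0.138 to 0.174 CPM at these depths, and covers counting error only. Only TGM2 of the 9 members passed the filter on low values.

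TGM2 RNA was lowest in DDC cells, intermediate in empty-vector cells and highest in SLC6A4 cells, with the widest spread among the DDC libraries. The 3 DDC libraries held 150, 153 and 97.0 TPM of TGM2, the 3 SLC6A4 libraries 322, 335 and 320 TPM, and the 3 empty-vector libraries 203, 200 and 197 TPM. The groups did not overlap, and DDC replicate 3 lay well below the other DDC libraries. Libraries of a pair of groups were as cleanly separated, in the direction seen for TGM2, for 16.1% of tested genes in DDC against empty-vector cells, 18.5% in SLC6A4 against empty-vector cells and 14.6% in DDC against SLC6A4 cells. By TPM the gene stood at ranks 513 to 674 of all genes in the DDC libraries, 311 to 326 in the SLC6A4 libraries and 424 to 444 in the empty-vector libraries. In bulk samples, fewer cells with the RNA and less RNA per cell cannot be told apart.

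**Figure D2:**
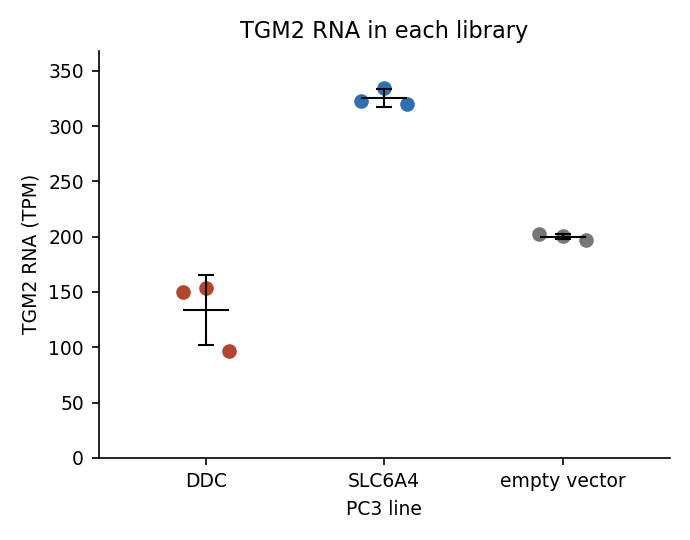
TGM2 RNA in TPM (vertical axis) in each of 9 PC3 libraries. Points are libraries, and the bar with whiskers is the mean ± SD of 3: the DDC libraries lie between 97.0 and 153 TPM, the SLC6A4 libraries between 320 and 335 TPM and the empty-vector libraries between 197 and 203 TPM.

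DDC cells had less TGM2 RNA than empty-vector cells, by 0.49 on the log2 scale. In the authors' normalised reads, which divide the reads by a size factor for each library of the DDC table, TGM2 had 14835, 15699 and 10460.0 in the DDC libraries, against 19851, 18811 and 18003 in the empty-vector libraries. All 3 DDC libraries were below all 3 empty-vector libraries. The means were 13665 ± 2809 normalised reads in DDC cells and 18888 ± 926 in empty-vector cells (SD, n = 3 each), and log2(normalised reads + 1) differed by -0.49 (SE 0.11, limma adjusted p = 0.00264). In this comparison 8.41% of 13146 tested genes were called lower at an adjusted p under 0.05 and 8.94% higher, and 10.3% of the tested genes had a more negative change than TGM2, whether called or not. Without DDC replicate 3 the change was -0.31 (SE 0.07, limma adjusted p = 0.00283). In that library 17.001% of the reads were mitochondrial-encoded, against 18.1% and 18.2% in the other DDC libraries and 16.9% to 18.1% in the empty-vector libraries. MT-CO2, the gene with the most reads, took 8.27% of its reads, above the 7.55% and 7.64% in the other DDC libraries and the 7.52% to 7.85% in the empty-vector libraries. In the SLC6A4 libraries MT-CO2 took 7.80% to 8.72%. DDC replicate 3 correlated with the other DDC libraries at 0.987 to 0.988 over all genes. The part of its composition in the TGM2 value was not tested. DESeq2 on the recovered reads of the genes passing the filter gave -0.48 with an adjusted p of 0.0546, which does not pass, and DESeq2 on all genes gave -0.47 with an adjusted p of 8.53e-04.

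SLC6A4 cells had more TGM2 RNA than empty-vector cells, by 0.73 on the log2 scale. In the SLC6A4 table TGM2 had 32534, 33440.0 and 32542 normalised reads in the SLC6A4 libraries, against 20834, 19823 and 18968 in the empty-vector libraries. The SLC6A4 libraries lay close together, and all were above the empty-vector libraries. The means were 32839 ± 521 normalised reads in SLC6A4 cells and 19875 ± 934 in empty-vector cells (SD, n = 3 each), which is 0.73 on the log2 scale (SE 0.05, limma adjusted p = 6.99e-09). Here 10.2% of 13264 tested genes were called higher and 9.28% lower, and 2.34% of the tested genes had a larger rise than TGM2. Among the 291 genes with a mean of at least 10000 normalised reads, 2 had a larger rise. Both comparisons use the same 3 empty-vector libraries, so they are not independent of each other. The authors' deposited table gives TGM2 a log2 change of -0.47 (SE 0.11, adjusted p = 8.53e-04) for DDC and of 0.72 (SE 0.05, adjusted p = 6.74e-44) for SLC6A4. For DDC these equal the values of DESeq2 on all genes given above, so they are not a separate result.

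Set directly against each other, DDC cells had far less TGM2 RNA than SLC6A4 cells. With size factors shared over the 9 libraries, the mean was 13968 ± 2890 normalised reads in DDC cells and 31962 ± 443 in SLC6A4 cells (SD, n = 3 each), a log2 difference of -1.22 (SE 0.10, limma adjusted p = 2.24e-08). This is the direct test of the difference in TGM2 RNA between the DDC and SLC6A4 lines, in which construct and line cannot be told apart. In this comparison 6.74% of 13544 tested genes were called lower in DDC cells and 6.47% higher, and 0.975% of the tested genes had a more negative difference than TGM2. None of the 291 genes at or above 10000 normalised reads had a more negative one.

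At its 3′ end TGM2 overlaps RPRD1B, a regulator of RNA polymerase II on the opposite strand, by 396 bases. Whether the RNA counting used strand is not given in the sources used here, so reads in those bases cannot be told apart. RPRD1B had 225 reads over the 3 DDC libraries, 227 over the SLC6A4 libraries and 253 over the empty-vector libraries, against 39936, 101691 and 58821 reads of TGM2.

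Of the genes around TGM2, 1 other, KIAA1755, was called lower in DDC than in SLC6A4 cells as TGM2 was, and none other fell in DDC cells. Within 500 kb of TGM2, 8 of 37 listed genes passed the filter on low values, TGM2 included. In DDC cells TGM2 was the only one of the 8 that fell against the empty vector and 2 rose, where 8.41% of all tested genes were called lower and 8.94% higher. SNHG17 and SNHG11, host genes of small nucleolar RNAs, rose by log2 0.47 (SE 0.10, limma adjusted p = 0.00141) and 0.55 (SE 0.12, limma adjusted p = 0.00145), and the other 5 did not pass.

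In SLC6A4 cells 4 of the 8 rose against the empty vector, TGM2 and both SNHG genes among them, and none fell in limma, with a median log2 change of 0.26. Over all tested genes 10.2% were called higher and 9.28% lower, with a median of 0.01. The fourth was KIAA1755, the next tested gene upstream of TGM2, with 28.6 ± 6.44 normalised reads in SLC6A4 cells and 14.3 ± 2.41 in empty-vector cells (SD, n = 3 each), which is 0.94 on the log2 scale (SE 0.27, limma adjusted p = 0.0182). In DDC cells KIAA1755 had 9.85 ± 2.42 normalised reads, against 13.6 ± 2.30 in empty-vector cells, which did not pass (limma adjusted p = 0.415). In DDC against SLC6A4 cells, TGM2 and KIAA1755 (log2 -1.39, SE 0.30, limma adjusted p = 0.00254) were the 2 of 8 that were lower and none was higher, where 6.74% of all tested genes were called lower and 6.47% higher. The neighbours on the other side, RPRD1B, TTI1 and CTNNBL1, passed in none of the 3 comparisons.

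**Figure D3:**
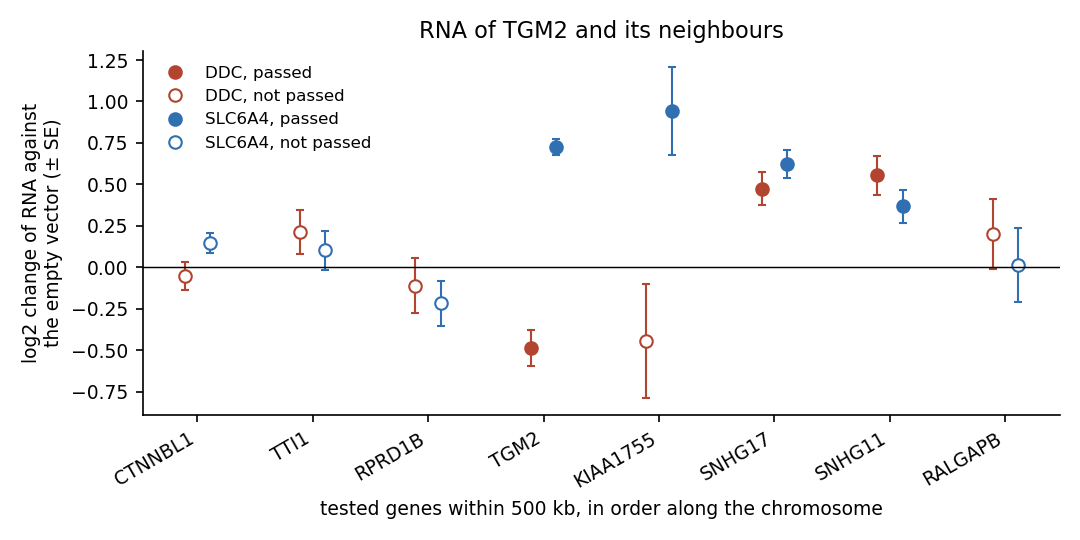
Log2 change of RNA against the empty vector (vertical axis, ± SE) for the 8 tested genes within 500 kb of TGM2, in order along the chromosome. Filled points passed an adjusted p under 0.05 and open points did not: TGM2 lies at -0.49 in DDC cells and 0.73 in SLC6A4 cells, while SNHG17 and SNHG11 lie above 0 in both lines.

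As a share of read pairs in regions, serotonylated signal over the TGM2 start was also lowest in DDC and highest in SLC6A4 cells. The region held 408, 425 and 389 H3K4me3Q5ser read pairs in the DDC libraries, 961, 1037 and 1172 in the SLC6A4 libraries, and 1073, 1027 and 1020.0 in the empty-vector libraries. Scaled to all read pairs in regions (CPM), these were 24.5, 25.6 and 28.8 in DDC cells, 48.1, 46.5 and 47.3 in SLC6A4 cells, and 44.1, 42.0 and 42.3 in empty-vector cells. The 3 groups did not overlap, and the gap to the empty vector was much larger in DDC cells than in SLC6A4 cells. Libraries were separated in the same direction at 32.9% of regions in DDC against empty-vector cells, 37.3% in SLC6A4 against empty-vector cells and 34.7% in DDC against SLC6A4 cells. The ChIP values of both marks were scaled within each library with no spike-in. A change of a mark common to all regions would therefore not show in them.

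H3K4me3Q5ser at TGM2 was 26.3 ± 2.24 CPM in DDC cells and 42.8 ± 1.13 CPM in empty-vector cells (SD, n = 3 each), a log2 change of -0.71 (SE 0.05, edgeR adjusted p = 7.01e-27). The mark was called lower in DDC cells at 31.5% of the 19535 regions and higher at 29.7%, so a call by itself is common. A change of this size was less common: 4.27% of all tested regions had a more negative change than TGM2. Among the 10166 regions at protein-coding starts, whose median change was 0.02, 133 (1.31%) did. In SLC6A4 cells the mark was 47.3 ± 0.805 CPM, against 42.8 ± 1.13 CPM in empty-vector cells, a log2 change of 0.20 (SE 0.04, edgeR adjusted p = 6.67e-07). There 41% of regions were called higher and 41.5% lower, the median change of the start regions was 0.13, and 44.1% of them rose more than TGM2. Between DDC and SLC6A4 cells the difference was -0.91 (SE 0.05, edgeR adjusted p = 5.10e-36), with 38.9% of regions called lower in DDC cells and 3.75% of start regions more negative than TGM2.

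**Figure D4:**
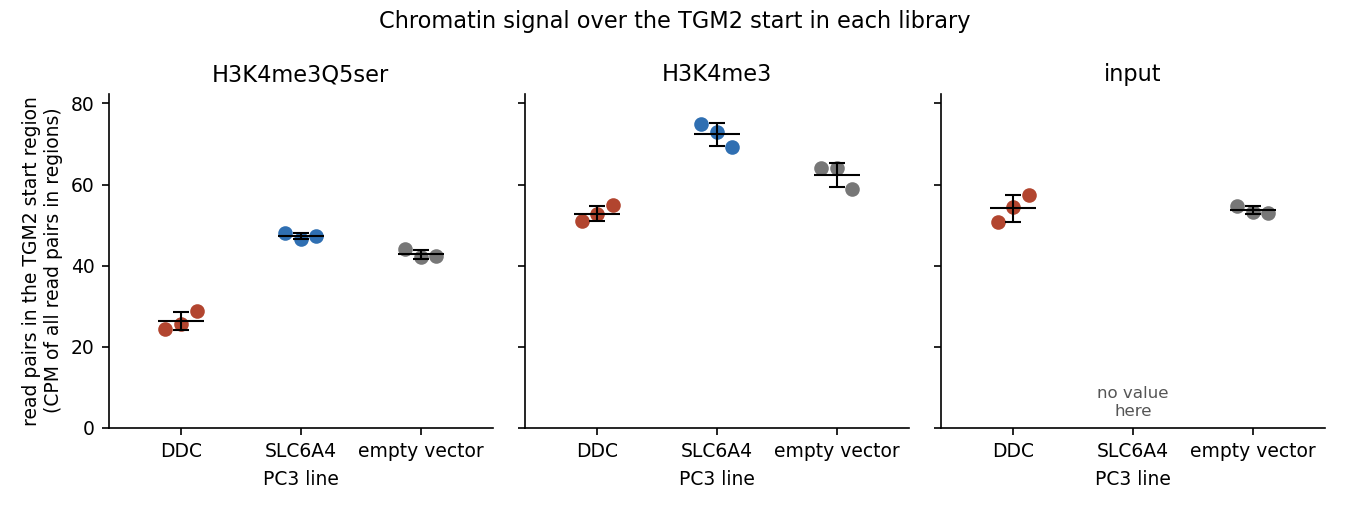
Read pairs over the TGM2 start region as CPM of all read pairs in regions (vertical axis) in each ChIP library, by mark. Points are libraries, and the bar with whiskers is the mean ± SD of 3: H3K4me3Q5ser lies at 24.5 to 28.8 CPM in DDC cells, 46.5 to 48.1 CPM in SLC6A4 cells and 42.0 to 44.1 CPM in empty-vector cells, while input lies at 50.7 to 57.4 CPM in DDC cells and 52.9 to 54.7 CPM in empty-vector cells.

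H3K4me3, the trimethyl mark of active promoters counted over the same region, moved in the same directions by smaller or similar amounts. The libraries held 51.0, 52.8 and 54.9 CPM in DDC cells, 74.96, 72.9 and 69.4 CPM in SLC6A4 cells, and 64.1, 64.0 and 59.0 CPM in empty-vector cells. The groups did not overlap, although these values rest on 191 to 403 read pairs in a library. Separation in the same direction was found at 16.4% of regions in DDC against empty-vector cells, 35.9% in SLC6A4 against empty-vector cells and 34.8% in DDC against SLC6A4 cells. The log2 change was -0.23 in DDC against empty-vector cells (SE 0.08, edgeR adjusted p = 0.0231), where 9.39% of 18972 tested regions were called lower. It was 0.18 in SLC6A4 against empty-vector cells (SE 0.07, edgeR adjusted p = 0.0157), where 31.9% of regions were called higher. It was -0.41 in DDC against SLC6A4 cells (SE 0.07, edgeR adjusted p = 3.57e-08), where 30.9% were called lower in DDC cells. The first of these calls was lost without DDC replicate 1 or 2 or empty-vector replicate 1 or 2 (adjusted p 0.0635 to 0.105), and the second without SLC6A4 replicate 1 (adjusted p 0.0555) or empty-vector replicate 3 (adjusted p 0.119). DESeq2 passed neither, with adjusted p of 0.0952 and 0.0951.

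The test of both marks together asked whether the log2 change of the serotonylated signal differed from that of the trimethyl signal. Input was not subtracted, so the share of background in each ChIP also enters this difference. In DDC cells H3K4me3Q5ser fell relative to H3K4me3 by 0.47 on the log2 scale against the empty vector (SE 0.09, edgeR adjusted p = 1.54e-05). At 9.88% of 19529 tested regions the relative change was called lower. A more negative one than at TGM2 was found at 6.27% of all tested regions and at 232 start regions (2.28%). In SLC6A4 cells the relative change was 0.02 (SE 0.08, edgeR adjusted p = 0.886), which did not pass, and 14.5% of regions were called higher. Between DDC and SLC6A4 cells it was -0.49 (SE 0.09, edgeR adjusted p = 1.01e-06), with 9.71% of regions called lower in DDC cells. There 2.04% of all tested regions and 97 start regions (0.954%) were more negative than TGM2.

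**Figure D5:**
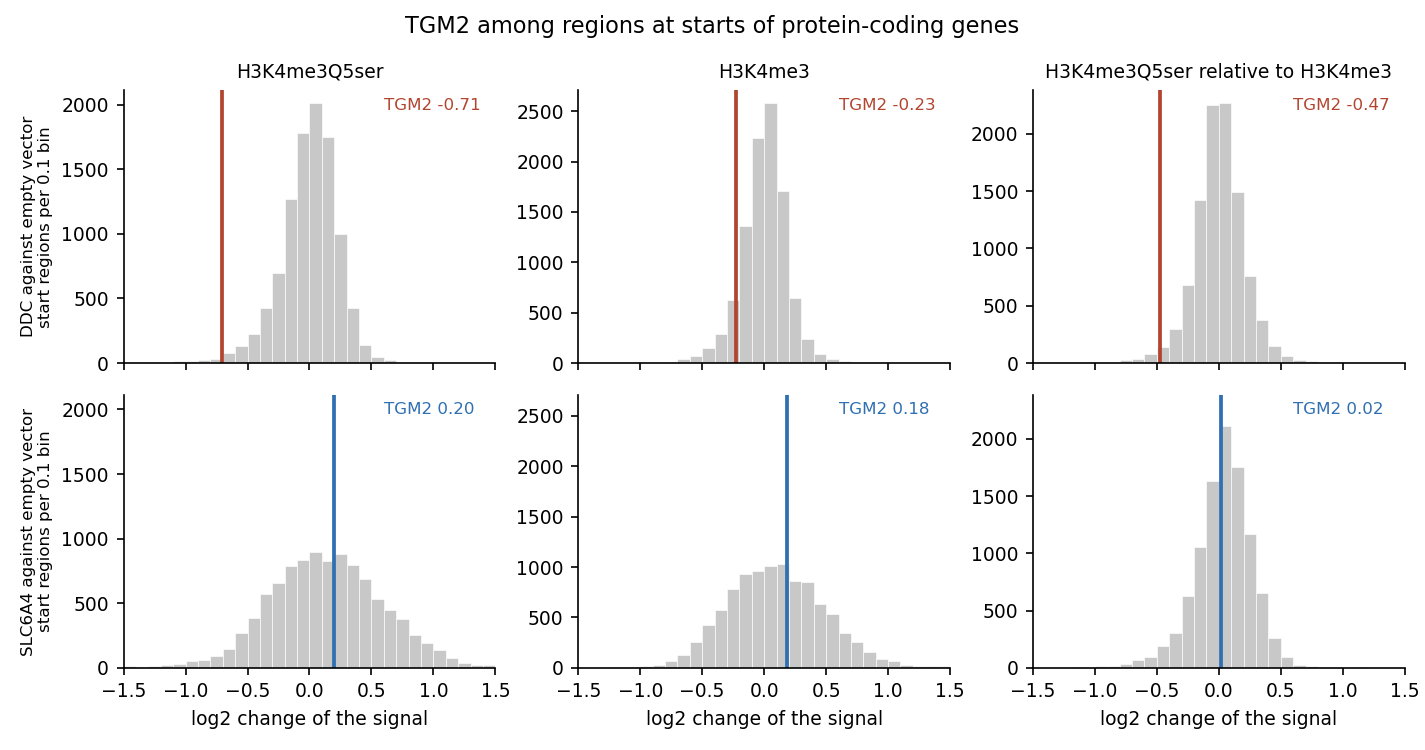
Number of regions at starts of protein-coding genes (vertical axis) by log2 change of the signal against the empty vector (horizontal axis, bins of 0.1), with DDC cells above and SLC6A4 cells below. The vertical line is TGM2: for H3K4me3Q5ser it lies at -0.71 in DDC cells, in the lower tail, and at 0.20 in SLC6A4 cells, near the middle.

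Input, which measures DNA and background without an antibody, held 89, 94 and 80 read pairs over the region in the DDC libraries, against 94, 80 and 97 in the empty-vector libraries. These were 54.1 ± 3.36 CPM in DDC cells and 53.6 ± 0.986 CPM in empty-vector cells (SD, n = 3 each), a log2 change of 0.003 (SE 0.13, edgeR adjusted p = 0.995). In input 6.3% of 18025 tested regions were called. Set against input as a description, with no test, the share of H3K4me3Q5ser read pairs over TGM2 stood at log2 -1.04 in DDC cells and -0.32 in empty-vector cells. The median of all regions compared stood at -0.32 and -0.26, and that of start regions at 0.07 and 0.06. Of the start regions, 6.62% and 22.6% were lower than TGM2. Mark and input are each scaled to read pairs in regions, so a ratio below 0 does not mean less signal than input. For H3K4me3 the share over TGM2 stood at -0.03 in DDC cells and 0.22 in empty-vector cells, above 42.1% and 67.8% of start regions.

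Per kilobase of region, H3K4me3Q5ser at TGM2 was 5.75 CPM in DDC cells, 10.4 CPM in SLC6A4 cells and 9.37 CPM in empty-vector cells. That level was above 25.8%, 68.1% and 61.3% of start regions in those lines. H3K4me3 per kilobase was 11.6 CPM in DDC cells, 15.8 CPM in SLC6A4 cells and 13.6 CPM in empty-vector cells, above 76.0%, 93.3% and 85.1% of start regions. By CPM per kilobase the percentile of TGM2 among start regions was higher for H3K4me3 than for H3K4me3Q5ser in each line. Relative to input the order of the marks was the same in DDC and empty-vector cells. By that measure H3K4me3 in DDC cells stood at -0.03 on the log2 scale, below the median start region at 0.05.

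H3K4me3Q5ser in DDC cells fell less or not at all in the 8 other regions within 500 kb. Of the 8, 5 rose, 1 fell and 2 did not pass, with changes from -0.32 to 0.30, where 29.7% of all regions were called higher and 31.5% lower. The 1 that fell lies at the start of VSTM2L (37902174 to 37905313; log2 -0.32, edgeR adjusted p = 0.00224), where the mark rose by 0.85 in SLC6A4 cells. In SLC6A4 cells 5 of the 8 rose and 3 fell, with changes from -1.05 to 0.90, where 41% of all regions were called higher and 41.5% lower. Input, compared only between DDC and empty-vector cells, was called at none of the 8 in edgeR's test.

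RNA calls and mark calls were set side by side over genes with 1 region at their start, as counts without a test. The other genes here are all those not called in the stated RNA direction, genes called the opposite way included. In DDC against empty-vector cells 749 such genes were called lower in RNA, and 413 of them (55.1%) were called lower for H3K4me3Q5ser, TGM2 among them, while the share was 26.9% of the other genes. For H3K4me3 the count was 159 of 749 (21.2%), with 7.84% of the other genes. In SLC6A4 against empty-vector cells 712 of 1025 genes called higher in RNA (69.5%) were called higher for H3K4me3Q5ser, with 52.8% of the other genes, and 523 of 1024 (51.1%) for H3K4me3, with 39.3% of the other genes. In DDC against SLC6A4 cells the shares for H3K4me3Q5ser lay close together, at 324 of 631 genes called lower in RNA (51.3%) and 50.9% of the other genes. For H3K4me3 the share was smaller among the genes called lower in RNA, at 198 of 631 (31.4%), with 39.2% of the other genes.

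In the knockdown set, H3K4me3 CUT&Tag at the TGM2 start was lowest in the cells with the hairpin. The peak at 38163239 to 38165291, which holds the canonical start, had 5.91 CPM in SLC6A4 cells with shTGM2, 8.15 CPM in SLC6A4 cells and 8.10 CPM in control cells. With 1 library per group there is no replicate check, and no difference at TGM2 reached 2-fold, the size rule used here. The log2 ratio of shTGM2 to SLC6A4 cells was -0.46, against a median of -0.08 over 13882 listed peaks, and 3.00% of those peaks had a lower ratio. By the 2-fold rule 12 peaks (0.0864%) were lower with shTGM2 than in SLC6A4 cells and none was higher. The ratio of shTGM2 to control cells was -0.45, where 0.382% of peaks were at least 2-fold lower, and that of SLC6A4 to control cells was 0.01, where 0.0792% were. The TGM2 peak belongs to the authors' list of 13882 peaks without gain and not to their list of 2163 gained peaks. Only the peaks without gain had values here, so the shares above and the lack of 2-fold higher peaks describe a selected set. TGM2 RNA in the hairpin cells was not measured in the files used here, so these values do not check the knockdown.

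Genes that supply and remove serotonin, the substrate of the reaction, were mostly near the floor. Of 13 listed genes 5 were tested in DDC against empty-vector cells, and 2 rose, 1 fell and 2 did not pass, with a median log2 change of -0.03 against 0.01 for all genes. Over all tested genes 8.94% were called higher and 8.41% lower. The risers were DDC itself and ALDH2, an aldehyde dehydrogenase, which had 14.9 ± 0.853 normalised reads in DDC cells and 4.90 ± 3.27 in empty-vector cells (SD, n = 3 each; log2 1.59, SE 0.43, limma adjusted p = 0.0117). MAOA, the oxidase that breaks serotonin down, fell by 0.69 on the log2 scale (SE 0.23, limma adjusted p = 0.0413). In SLC6A4 against empty-vector cells 1 of 4 rose, SLC6A4 itself, and 3 did not pass, where 10.2% of all tested genes were called higher and 9.28% lower. In DDC against SLC6A4 cells DDC was higher, SLC6A4 lower and the other 4 did not pass, where 6.47% were called higher and 6.74% lower. TPH1, a tryptophan hydroxylase that starts serotonin synthesis, had at most 5.58 normalised reads in any library.

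The enzymes and readers of H3K4 methylation were all measured. Of 19 genes 2 rose, 1 fell and 16 did not pass in DDC against empty-vector cells, where 8.94% and 8.41% of all tested genes were called higher and lower, so the counts are near the shares over all genes. TAF3, the TFIID subunit that binds H3K4me3, rose by log2 0.63 (SE 0.16, limma adjusted p = 0.0086). CXXC1, the CpG-binding subunit of the SETD1 methyltransferases, rose by 0.52 (SE 0.15, limma adjusted p = 0.0189). KDM5A, an H3K4 demethylase, fell by 0.57 (SE 0.16, limma adjusted p = 0.0142). In SLC6A4 against empty-vector cells 1 rose, TAF3 (0.61), and 2 fell, the demethylases KDM5B (-0.80) and KDM5A (-0.38), with limma adjusted p of 0.0068, 0.00379 and 0.0327, where 10.2% and 9.28% of all tested genes were called higher and lower. None of the 19 passed in limma between DDC and SLC6A4 cells, where 6.47% and 6.74% were called.

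The list of TGM2's binding partners and substrates had 18 tested members. Of these 1 rose and 6 fell in DDC against empty-vector cells, where 8.94% and 8.41% of all tested genes were called higher and lower, with a median log2 change of 0.07 against 0.01 for all genes, so the median and the calls differ in sign. PDIA3, a protein disulfide isomerase, had 15629 ± 2777 normalised reads in DDC cells and 28763 ± 1636 in empty-vector cells (SD, n = 3 each; log2 -0.89, SE 0.10, limma adjusted p = 1.13e-06). Annexin A1 (ANXA1) fell by 0.51 (SE 0.07, limma adjusted p = 2.66e-05). FN1, the fibronectin that TGM2 binds on the cell surface, fell by 0.54 (SE 0.09, limma adjusted p = 1.93e-04). The member that rose was NFKBIA, the inhibitor of NF-kB, by 0.59 (SE 0.11, limma adjusted p = 2.74e-04).

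In SLC6A4 against empty-vector cells 2 of the 18 partners rose and 7 fell, where 10.2% and 9.28% of all tested genes were called, with a median of -0.21 against 0.01 for all genes. FN1 had 192 ± 13.2 normalised reads in SLC6A4 cells and 689 ± 33.2 in empty-vector cells (SD, n = 3 each; log2 -1.84, SE 0.08, limma adjusted p = 2.62e-11). The latent TGF-beta binding protein LTBP1 fell by 0.49 and the integrin subunit ITGB1 by 0.33, while vimentin (VIM) rose by 0.36, with limma adjusted p of 2.33e-04, 7.51e-04 and 5.09e-04. In DDC against SLC6A4 cells 3 were higher, FN1 (1.30) and NFKBIA (0.89) among them, and 2 were lower, ANXA1 (-0.48) and PDIA3 (-0.62), where 6.47% and 6.74% of all tested genes were called higher and lower. The largest limma adjusted p of these 4 was 9.88e-05, that of PDIA3.

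Known regulators of TGM2 transcription include retinoic acid, TGF-beta, NF-kB, hypoxia and growth factor signals. Of 16 tested genes of these routes 1 rose and 3 fell in DDC against empty-vector cells and 12 did not pass, where 8.94% and 8.41% of all tested genes were called higher and lower. DHRS3, a retinal reductase that retinoic acid induces, had 1590 ± 154 normalised reads in DDC cells and 3961 ± 469 in empty-vector cells (SD, n = 3 each; log2 -1.31, SE 0.09, limma adjusted p = 1.38e-10). CRABP2, the retinoic acid carrier, fell by 2.18 (SE 0.22, limma adjusted p = 9.58e-08), and the hypoxia factor HIF1A fell by 0.65 (SE 0.11, limma adjusted p = 2.17e-04). SMAD3, which relays TGF-beta signals, rose by 0.38 (SE 0.12, limma adjusted p = 0.0283).

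In SLC6A4 cells, where TGM2 RNA was higher, DHRS3 (-1.86), CRABP2 (-1.35) and HIF1A (-0.70) also fell against the empty vector, with limma adjusted p of 7.24e-12, 1.02e-05 and 7.20e-07. EGFR, the epidermal growth factor receptor, rose, with 245 ± 15.5 normalised reads in SLC6A4 cells and 172 ± 4.70 in empty-vector cells (SD, n = 3 each; log2 0.51, SE 0.10, limma adjusted p = 9.64e-04). In all, 2 of the 16 rose, 4 fell and 10 did not pass, where 10.2% and 9.28% of all tested genes were called higher and lower. In DDC against SLC6A4 cells EGFR (-0.83), CRABP2 (-0.84) and IL6 (-0.64) were lower and DHRS3 (0.54) was higher, with limma adjusted p of 3.19e-05, 0.00822, 0.0409 and 1.58e-04. The other 12 did not pass, where 6.47% and 6.74% of all tested genes were called higher and lower.

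The genes whose RNA followed TGM2 most closely over the 9 libraries were EGFR, the chaperone HSP90AB1, the complement regulator CD46, the interleukin receptor IL7R and the fatty acid desaturase SCD. Their Pearson correlations with TGM2 were 0.986, 0.985, 0.982, 0.979 and 0.975 on log2 normalised reads, among 4883 genes with a mean of at least 100. The 9 libraries fall into 3 lines, so these values mostly describe 3 group levels, and they are given without a test. SCD had 228, 519 and 309 normalised reads on average in DDC, SLC6A4 and empty-vector cells. CCDC167, NBDY and NARF ran most opposite to TGM2, at -0.981, -0.975 and -0.974.

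Markers of prostate epithelial cells were lower in both lines, which is given here beside the TGM2 values. Their summed level was 433 to 494 TPM in the DDC libraries, 628 to 700 TPM in the SLC6A4 libraries and 755 to 845 TPM in the empty-vector libraries. All 5 fell in DDC against empty-vector cells, where 8.41% of all tested genes did, and 4 of 5 fell in SLC6A4 against empty-vector cells, where 9.28% did, led by CDH1, which encodes E-cadherin (log2 -3.54, limma adjusted p = 6.37e-08, and -1.17, limma adjusted p = 0.001). Summed markers of immune cells stood at 4.104 to 5.75 TPM, of endothelial cells at 0.359 to 2.51 TPM and of fibroblasts and smooth muscle at 0.361 to 0.886 TPM over the 9 libraries. In 2 of these lists a single gene passed the filter on low values, CD68 among immune markers and PECAM1 among endothelial markers, while the fibroblast gene DCN had no read. PECAM1 fell in both lines (-1.49 and -2.34), with limma adjusted p of 1.68e-08 and 2.62e-09. Of the 2 tested fibroblast and smooth muscle genes, ACTA2 and COL1A1, 1 was called lower and 1 did not pass in each line. Their median log2 change was -0.80 in DDC cells and -0.71 in SLC6A4 cells. COL1A1 fell in both lines (-1.64 and -0.99), and CD68 passed in neither. The part of any of these in the TGM2 values was not tested.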

How the data were processed

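The RNA tables hold signal per gene that the authors had normalised with DESeq2 (reads over a size factor for each library), beside log2 fold changes and adjusted p-values of their own, per the file headers. HISAT2 2.1.0 and GRCh38 are named in the submitters' processing notes. Each deposited RNA column stepped in whole units of 1 read (100% of values, tolerance 1e-06), which gave back the reads, and the empty-vector reads of both tables were equal (0 genes differed). The design had assumed counts. Instead limma 3.58.1 with a trend was run on log2(normalised value + 1), keeping genes that reach 10 in 3 or more libraries, a scale on which folds of low genes come out too small. DDC and SLC6A4 were compared on recovered reads with size factors shared over 9 libraries.

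For ChIP the deposited table gives estimated counts of read pairs in each region from featureCounts 2.0.3 with fractional sharing, per the file headers. Of its values 9.78% are not whole, and they were rounded. The quasi-likelihood test of edgeR 4.0.16 (TMM scaling, edgeR's filter on low counts) was fitted over all regions, with an interaction of mark and line for H3K4me3Q5ser relative to H3K4me3. SE there is the change divided by the square root of F. For CUT&Tag the authors deposited CPM of each peak with no library total, so no interval was computed. The peak lists, called with MACS2 per the submitters' processing notes, hold positions with no score and were used as deposited; whether samples were pooled for calling is not given in the sources used here.

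Tests are two-sided with Benjamini-Hochberg adjustment over all features of a comparison and a threshold of 0.05. DESeq2 1.42.0 was an alternative. TPM came from recovered reads and exon lengths of GENCODE 44, which matched 62625 of 62703 gene identifiers. Scripts for both tests were checked on simulated data. TGM2, the gene lists and the tests were chosen with earlier results of these data known. Named genes are TGM2, its family, its tested neighbours, DDC and SLC6A4, up to 4 called genes per list by adjusted p, and the 5 most and 3 least correlated genes; ENSG identifiers are as deposited. TPH1 and other-cell markers named beyond that rule were chosen after their values were seen. A marker list is not reported here. Input of SLC6A4 cells was not analysed here.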

Additional observations from a re-analysis of the deposited data

Results flagged for a closer look

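The TGM2 changes in DDC cells and in SLC6A4 cells ran in opposite directions against the same empty-vector libraries. The direct test of the difference between these lines passed in 4 measures. The log2 difference of DDC against SLC6A4 cells was -1.22 for TGM2 RNA (limma adjusted p = 2.24e-08), -0.91 for H3K4me3Q5ser over the TGM2 start (edgeR adjusted p = 5.10e-36) and -0.41 for H3K4me3 there (edgeR adjusted p = 3.57e-08). For H3K4me3Q5ser relative to H3K4me3 it was -0.49 (edgeR adjusted p = 1.01e-06). All 3 DDC libraries lay below all 3 SLC6A4 libraries for RNA and for each mark. Groups of 3 libraries are too small for an outlier test, so no library is called an outlier here.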

How the results depend on the processing

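For TGM2 itself, 140 of 155 values under other settings kept their direction and their side of the threshold. Under DESeq2, RNA in DDC against empty-vector cells was -0.48 (adjusted p = 0.0546), H3K4me3 was -0.24 for DDC (adjusted p = 0.0952) and 0.17 for SLC6A4 (adjusted p = 0.0951), none of them passing. Leaving out 1 library at a time gave H3K4me3 changes of -0.27 to -0.21 for DDC and 0.14 to 0.22 for SLC6A4, with calls lost as given above. The same step gave input changes of -0.034 to 0.050, with the sign turning in 4 fits, 720 to 848 input regions called, and -0.016 to 0.056 for H3K4me3Q5ser relative to H3K4me3 in SLC6A4 against empty-vector cells, which was -0.069 with library size alone. The cause of these shifts was not tested. DESeq2 called 1643 H3K4me3 regions in DDC cells, against 3333 in edgeR, and 148 input regions, against 1136. DESeq2 on the recovered reads of all genes, chosen after seeing the data, called 1470.0 genes for DDC and 1686 for SLC6A4, against 2281 and 2579 in limma. By Spearman's rho, 2 of the 5 genes most like TGM2 were the same. Library size alone moved the median RNA change of all genes in DDC cells to -0.12, against 0.01, and TGM2 to -0.58. Departures from the group means correlated at -0.123 to 0.0958 between libraries of the same replicate number. For H3K4me3 in DDC against either other line, and for input, each number matched itself best, at no more than 0.0204. With a replicate block the TGM2 changes were -0.49 for RNA and -0.71 for H3K4me3Q5ser in DDC cells, with no call changed. The H3K4me3 values rest on 191 to 403 read pairs in a library.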
